A study of Mus musculus with 12 samples.

Results

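Mouse embryonic fibroblasts labelled as RBBP5 knockout were compared with fibroblasts labelled as wildtype after 16 h in EBSS, Earle's salt solution with glucose and without amino acids or serum. All cells carried 2 floxed Rbbp5 alleles (flox/flox) and Rosa26 Cre (+/+). The labelled KO cells had received tamoxifen for 7 days before the medium change and the labelled wildtype cells none, so tamoxifen, Cre activity and loss of Rbbp5 cannot be told apart. Each group had 3 libraries of poly(A) RNA, and 3 libraries of each label kept in full medium (DMEM with serum) served as the reference for a further contrast. The table gave TPM, a transcript abundance per length scaled to a library total, for 25117 gene symbols. The listed values did not have the same sum in each EBSS library. They summed to 923100 to 941300 TPM in labelled wildtype and 983800 to 992100 TPM in labelled KO. Tested were the 12073 that reached a TPM of 1 in 3 or more of the 6 EBSS libraries. A gene could pass through the libraries of 1 group alone. Of those tested, 11891 to 11950 reached 1 TPM in each labelled KO library and 10374 to 10934 in each labelled wildtype library.

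RBBP5 is a shared core subunit of the SET1/MLL complexes, which methylate lysine 4 of histone H3, a mark of active promoters and enhancers. In nutrient starvation, loss of mTORC1 signalling lowers the translation of ribosomal protein mRNAs and frees TFEB and related factors to act on lysosome and autophagy genes. Shortage of amino acids also activates the kinase GCN2 and, through ATF4, genes for amino acid transport and synthesis.

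Differences are given as log2(TPM + 1) in labelled KO minus labelled wildtype, a scale that understates the change of low genes, and a gene was called where the limma p, adjusted over all 12073 genes, was below 0.05. TPM are shares of a library, so each contrast was fitted on the deposited values and again after dividing each library by a median-of-ratios size factor. The titles call the replicates brep, and no label says whether they came from separate embryos or cultures, so p-values measure only the spread between these libraries.

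Rbbp5 itself (chromosome 1, 132477365 to 132505659 on the plus strand of GRCm38) went against the EBSS labels. It measured 31.9, 24.6 and 23 TPM in the labelled KO libraries and 12.4, 14 and 11.8 TPM in the labelled wildtype libraries (log2 change 0.99, SE 0.17, limma adjusted p = 0.0017). Every library labelled KO was above every library labelled wildtype. After scaling the difference was 0.07, adjusted p = 0.73. In full medium the order was the opposite, with 7.47, 9.34 and 8.31 TPM in the labelled KO libraries and 26.2, 25.7 and 26.2 TPM in the labelled wildtype libraries. TPM are listed per gene symbol, and how transcripts were summed is not given in the sources used here. Reads outside the floxed part may therefore count too, which was not tested. Every direction below is between libraries labelled KO and libraries labelled wildtype.

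The mean levels of the 2 EBSS groups were set beside those of the full-medium groups. The labelled KO EBSS mean lay within 2-fold of the labelled wildtype full-medium mean for 12004 genes (99.4%), with a median absolute log2 difference of 0.14. It lay within 2-fold of the labelled KO full-medium mean for 9780 genes (81%). For the labelled wildtype EBSS mean the counts were 5718 genes (47.4%) beside labelled wildtype in full medium and 6780 genes (56.2%) beside labelled KO in full medium. Whether titles or columns were exchanged was not tested, and an exchange would change what each EBSS difference and each contrast with full medium means.

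One library in each EBSS group stood apart from its replicates. Labelled wildtype replicate 3 had a Pearson r across genes of 0.941 and 0.939 to its 2 replicates on log2(TPM + 1), where those 2 had 0.991. It was at least 2-fold above both for 427 genes and below both for 873. Labelled KO replicate 1 had 0.971 and 0.969, where replicates 2 and 3 had 0.997 to each other, and it was at least 2-fold above both for 319 genes and below both for 208. The 100 most abundant genes took 45.8% to 48% of the labelled wildtype TPM and 26.8% to 28.2% of the labelled KO TPM.

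All 14 fibroblast markers passed the filter, with sums of 6159 to 9372 TPM in labelled KO and 4887 to 5815 TPM in labelled wildtype. Vim, the mesenchymal filament vimentin, measured 1973, 2730 and 2763 TPM in labelled KO and 2494, 2628 and 2273 TPM in labelled wildtype, while Lum stayed low, at 1.57, 4.37 and 4.47 TPM in labelled KO and 0.0758, 0 and 0 TPM in labelled wildtype. Of 10 macrophage markers 4 were tested, and their full sum was 30.93 to 33.87 TPM in labelled KO and 23.05 to 105.4 TPM in labelled wildtype. The highest sum was labelled wildtype replicate 3, where Lyz2, a macrophage lysozyme, measured 2.22, 2.93 and 48.4 TPM over replicates 1 to 3, and Tyrobp 0.338, 0.161 and 6.20 TPM. Ptprc, the pan-leukocyte CD45, stayed below 1 TPM in all 6 and was also highest in labelled wildtype replicate 3 (0.734 TPM). So were Fcer1g (11.3 TPM), Adgre1 (3.38 TPM), Csf1r (2.84 TPM), Aif1 (2.81 TPM) and Itgam (1.28 TPM). Some markers of other cell types were also highest in that library, among them Pecam1 (4.48 TPM), Cldn7 (7.47 TPM), Acta1 (13.6 TPM) and Gfap (2.31 TPM). Others were lowest there, such as Krt18 (1.10 TPM) and Fabp4 (5.94 TPM). Cd68 was at 14.82 to 20.36 TPM over the 6, and Cd14 was highest in labelled KO (11.55 to 12.45 TPM). Epithelial markers summed to 100.5 to 146.1 TPM in labelled KO and 213.5 to 230.1 TPM in labelled wildtype, nearly all of it Krt19, while Epcam, Cdh1, Krt5 and Krt14 were below 1 TPM throughout. Adipocyte markers summed to 54.6 to 68.8 TPM in labelled KO and 15.32 to 23.26 TPM in labelled wildtype, mostly Fabp4, with Plin1 listed at 0 in all 6 and Adipoq below 1 TPM. Endothelial markers summed to at most 16.54 TPM, in labelled wildtype replicate 3. The part of such cells in the results was not tested, and in bulk RNA fewer cells of a type and less RNA per cell cannot be told apart.

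Most genes had a higher TPM in labelled KO. As deposited, 9004 genes were called (74.6%), 8131 higher (67.3%) and 873 lower (7.23%), and the median log2 change over all genes was 0.94. The size factors were 0.6977 to 0.7372 in labelled wildtype and 1.387 to 1.478 in labelled KO. After scaling the median was 0.08 and 6114 genes were called (50.6%), 3123 higher (25.9%) and 2991 lower (24.8%), so the share of calls that were higher went from 90.3% to 51.1%. All 3123 genes higher after scaling were also called higher as deposited, and all 873 lower as deposited were also called lower after scaling. Another 500 genes (4.14%) were called in opposite directions and 1451 (12%) under neither. Counts of called members in each list below are read against the shares of all genes called higher and lower under the same scaling. Library values did not overlap between the groups for 8609 genes higher and 1019 lower as deposited (71.3% and 8.44%), and for 4103 higher and 3609 lower after scaling (34% and 29.9%).

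The 12 genes plotted by library span these patterns, from RNAs near 0 in one group to shifts of a few fold.

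**Figure D1:**
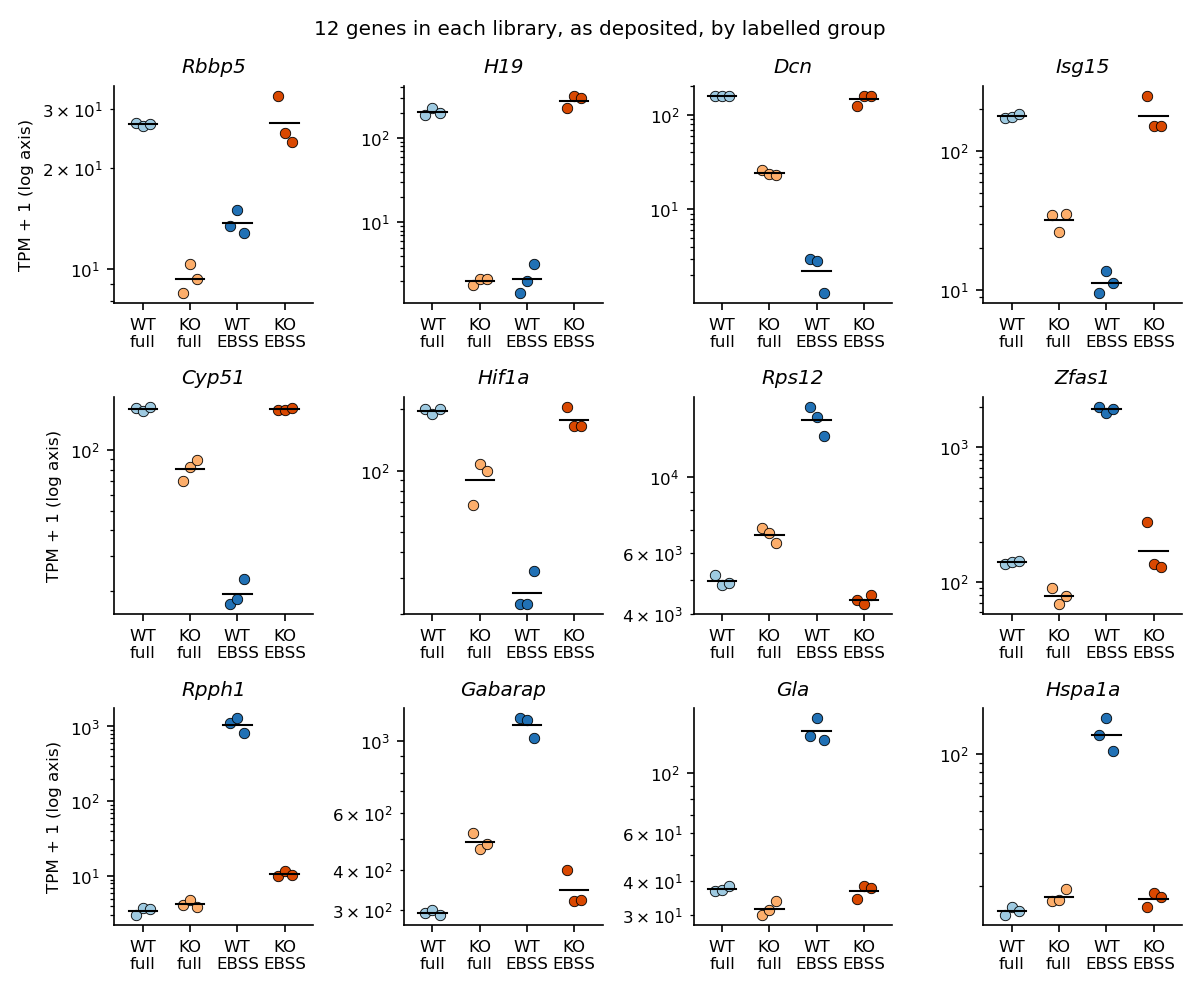
TPM + 1 on a log axis for 12 genes in each library of the 4 labelled groups (WT is labelled wildtype, KO labelled KO), 3 points a group, with a line at the mean of the logs. Rbbp5, H19, Dcn, Isg15, Cyp51 and Hif1a are higher in labelled KO than in labelled wildtype in EBSS, and the other 6 lower, with no overlap of the 3 libraries of each.

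Ribosomal protein mRNAs were lower in labelled KO. They code for the proteins of both ribosomal subunits and carry a 5′ terminal oligopyrimidine (TOP) start. Of the list, 0 of 79 were called higher and 76 lower as deposited, and 0 higher and 79 lower after scaling, with a median log2 change of -1.05 as deposited and -2.02 after scaling, against 0.94 and 0.08 over all genes. They took 32.7% to 35.3% of all TPM in the labelled wildtype libraries and 15.1% to 15.4% in the labelled KO libraries.

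Rps12 had the largest fall of the list. It measured 4373, 4261 and 4530 TPM in the labelled KO libraries and 15960, 14880 and 13090 TPM in the labelled wildtype libraries (log2 change -1.73, SE 0.11, limma adjusted p = 7.5e-05). All 3 labelled wildtype values lay above all 3 labelled KO values. Rpl41, of the large subunit, measured 4577, 5122 and 4976 TPM in the labelled KO libraries and 14690, 16540 and 13360 TPM in the labelled wildtype libraries (-1.60). Rpl4 and Rpl29 were not called as deposited (-0.25 and -0.27) and were called lower after scaling (-1.23 and -1.24).

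Other TOP and translation genes were mixed. Of the translation factors, 21 of 48 were called higher and 13 lower as deposited, and 3 higher and 31 lower after scaling (without the 2 libraries that stood apart, 25 and 16 as deposited and 6 and 35 after scaling). The elongation factors Eef1b2 (-1.39 as deposited and -2.36 after scaling) and Eef2 (-1.22 as deposited and -2.19 after scaling) and the initiation factor Eif1 (-1.22 as deposited and -2.19 after scaling) were lower under both scalings. Eif4g2 was higher under both (1.26 as deposited and 0.30 after scaling). Eef1a1, the most abundant of them, was not called as deposited (-0.17) and was -1.15 after scaling. Among the paralogs of ribosomal proteins, Rpl22l1 was lower (106, 91.3 and 101 TPM in the labelled KO libraries and 603, 629 and 366 TPM in the labelled wildtype libraries), and Rps27l changed direction with the scaling (0.34 as deposited and -0.63 after scaling).

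Long RNAs that host small nucleolar RNAs in their introns were far lower in labelled KO. Of them, 2 of 22 were called higher and 17 lower as deposited, and 0 higher and 20 lower after scaling, with a median of -1.91 as deposited and -2.87 after scaling. Zfas1 measured 279, 134 and 129 TPM in the labelled KO libraries and 2000, 1815 and 1934 TPM in the labelled wildtype libraries (log2 change -3.49, SE 0.29, limma adjusted p = 0.00012). Labelled KO replicate 1 was the highest of its group for Zfas1, still far below every labelled wildtype library. Snhg12 showed the same arrangement, with 234, 68 and 58.6 TPM in the labelled KO libraries and 1043, 969.5 and 943 TPM in the labelled wildtype libraries, as did Snhg1 (-2.73). For Snhg8 the labelled KO libraries lay close together (35, 32.7 and 32.7 TPM). Against the rest, 2 hosts were called higher as deposited, Wdr43 (1.07 as deposited and 0.11 after scaling) and Snhg18 (0.66 as deposited and -0.28 after scaling), the second with the opposite sign after scaling.

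Structural RNAs that lack a poly(A) tail were far lower in labelled KO. Of the list, 0 of 6 were called higher and 4 lower as deposited, and 0 higher and 4 lower after scaling. Rpph1, the RNA subunit of RNase P (chromosome 14, 50807449 to 50807767, minus strand), measured 9.09, 10.9 and 9.49 TPM in the labelled KO libraries and 1102, 1302 and 809 TPM in the labelled wildtype libraries (log2 change -6.61, SE 0.18, limma adjusted p = 2.1e-05). The 3 labelled wildtype EBSS libraries stood alone at this level among the 12, since in full medium Rpph1 was 2.01, 2.78 and 2.62 TPM in labelled wildtype and 3.06, 3.77 and 2.92 TPM in labelled KO. Rmrp, the RNA of RNase MRP, measured 6.37, 20 and 15.8 TPM in the labelled KO libraries and 869, 1033 and 829.5 TPM in the labelled wildtype libraries and the ribosomal precursor Rn45s 109, 167 and 232 TPM in the labelled KO libraries and 1454, 2105 and 1610 TPM in the labelled wildtype libraries. The multi-copy Rn4.5s was lower as well (-5.19 as deposited and -6.16 after scaling).

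The part of poly(A) selection in the levels of these RNAs was not tested. Also among the largest falls were single small nucleolar RNAs, named here for the size of their fall. They were Snord14d (0, 0 and 6.66 against 69.3, 275 and 532 TPM), Snord14c (6.79, 6.82 and 0 against 108, 93.9 and 519.5 TPM), Snora78 (2.84, 4.99 and 2.71 against 193, 169 and 117 TPM) and Snora64 (31.5, 17.5 and 22.1 against 304, 321 and 478 TPM). The U3 entry Rnu3a was at 0, 0.595 and 1.27 against 45.5, 16.4 and 48.4 TPM. Where small nucleolar RNAs lie inside host genes, how reads were divided between them is uncertain. Of small nucleolar RNAs by symbol, 2 of 38 were called higher and 8 lower as deposited, and 1 higher and 9 lower after scaling (without the 2 libraries that stood apart, 2 and 19 as deposited and 2 and 24 after scaling). With all 6 libraries, the share called lower was near that of all genes after scaling (24.8%) and above it as deposited (7.23%). Without the 2 libraries, 1438 of all 12073 genes were called lower as deposited and 4434 after scaling.

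Replication-dependent histone mRNAs, which end in a stem-loop, leaned the same way. Of them, 3 of 44 were called higher and 11 lower as deposited, and 1 higher and 14 lower after scaling (without the 2 libraries that stood apart, 3 and 32 as deposited and 1 and 39 after scaling), with a median of -0.86 as deposited and -1.31 after scaling. Labelled wildtype replicate 3 was at least 2-fold below the mean of its replicates for 27 of the 44 and above it for 8. H4c3 measured 0.984, 1.49 and 0.845 TPM in the labelled KO libraries and 10.1, 10.7 and 28.9 TPM in the labelled wildtype libraries, and here labelled wildtype replicate 3 was the highest library. H2bc4 was higher as deposited and near 0 after scaling (0.92 as deposited and -0.04 after scaling). Histone genes are near-identical copies, so values of single members are uncertain.

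ATG8 genes, whose products coat autophagosome membranes, were lower in labelled KO. Of the 5 members, 4 were called lower and 1 higher as deposited, and all 5 lower after scaling, with medians of -1.53 as deposited and -2.50 after scaling. Gabarap measured 399, 319.7 and 321 TPM in the labelled KO libraries and 1181, 1164 and 1020 TPM in the labelled wildtype libraries (log2 change -1.70, SE 0.12, limma adjusted p = 8.9e-05). Gabarapl1 measured 160.2, 83.1 and 76.8 TPM in the labelled KO libraries and 378, 375 and 482 TPM in the labelled wildtype libraries, with no overlap between the groups. Other autophagy genes followed no single direction.

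Over all autophagy genes, 27 of 51 were called higher and 9 lower as deposited, and 7 higher and 28 lower after scaling (without the 2 libraries that stood apart, 31 and 14 as deposited and 11 and 34 after scaling), with a median of 0.50 as deposited and -0.44 after scaling. Atg14, a subunit of the autophagy lipid kinase complex, was lower (-1.59 as deposited and -2.50 after scaling). Higher under both scalings were the mitophagy receptor Bnip3 (2.13 as deposited and 1.18 after scaling), the kinase Ulk2 (2.04 as deposited and 1.23 after scaling), the ATG8 protease Atg4c (1.97 as deposited and 1.32 after scaling) and the ER-phagy receptor Retreg1 (1.90 as deposited and 0.97 after scaling). The receptor Sqstm1 (p62) was not called as deposited, with 1727, 538 and 503 TPM in the labelled KO libraries and 1078, 1035 and 1020 TPM in the labelled wildtype libraries. Labelled KO replicate 1 was above, and replicates 2 and 3 below, all labelled wildtype libraries.

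Lysosome genes split by role. Of all of them, 38 of 73 were called higher and 16 lower as deposited, and 12 higher and 38 lower after scaling (without the 2 libraries that stood apart, 40 and 22 as deposited and 19 and 46 after scaling). Of the V-ATPase, the proton pump that acidifies the lysosome, 4 of 16 were called higher and 9 lower as deposited, and 1 higher and 14 lower after scaling, with a median of -0.47 as deposited and -1.44 after scaling. Atp6v0b measured 368, 210.3 and 214 TPM in the labelled KO libraries and 1059, 1179 and 1013 TPM in the labelled wildtype libraries (-2.08), while the subunit Atp6v0a2 was higher (2.00 as deposited and 1.07 after scaling).

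Of the glycosidases and sulfatases, 12 of 21 were called higher and 2 lower as deposited, and 6 higher and 9 lower after scaling (without the 2 libraries that stood apart, 12 and 4 as deposited and 8 and 10 after scaling). Sgsh (2.53 as deposited and 1.79 after scaling), Ids (2.46 as deposited and 1.59 after scaling) and Naglu (2.31 as deposited and 1.47 after scaling), which degrade glycosaminoglycans, were higher. Gla, alpha-galactosidase A, was lower, with 33.4, 37.2 and 36.5 TPM in the labelled KO libraries and 137, 159 and 131 TPM in the labelled wildtype libraries (log2 change -1.96, SE 0.11, limma adjusted p = 7e-05). Ctns, the cystine exporter, was lower (-1.47 as deposited and -2.38 after scaling). The abundant Psap and Ctsa were not called as deposited (0.25 and -0.26).

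TFEB and its relatives bind the CLEAR element, whose palindromic core TCACGTGA was searched on both strands in the 250 bases before the RefSeq start of 9608 tested genes. It was present in 181 of them (1.88%), in 29 of 691 genes lower under both scalings (4.2%) and in 30 of 2421 higher under both (1.24%). Of 57 lysosome genes with a window 7 held it (12.3%), with a median log2 change of -0.52 as deposited and -1.48 after scaling, against 0.57 and -0.38 for the others. Of those 7, 4 were called lower and 0 higher as deposited. Of 43 autophagy genes with a window 4 held it (9.3%), with 1 called lower and 1 higher and a median of 0.18 as deposited and -0.78 after scaling, against 0.48 and -0.44 for the others. Shown are parts of the windows, with up to 45 bases on each side of a match. They belong to the 4 lysosome or autophagy members with the largest falls among those with a match that were called lower under both scalings. The 4 were therefore chosen by their values. The stretches are from RefSeq on GRCm38.p6, 5′ to 3′ on the gene's strand, with the match in capitals. They lie at chrX:134601148-134601245 (minus strand), chr8:3500428-3500518 (plus), chr1:75142690-75142785 (plus) and chr7:142387874-142387971 (minus).
Gla: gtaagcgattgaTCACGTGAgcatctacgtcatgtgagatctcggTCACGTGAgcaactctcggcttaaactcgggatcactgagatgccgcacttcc
Mcoln1: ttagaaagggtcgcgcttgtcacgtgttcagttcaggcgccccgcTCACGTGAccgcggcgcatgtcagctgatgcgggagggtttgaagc
Retreg2: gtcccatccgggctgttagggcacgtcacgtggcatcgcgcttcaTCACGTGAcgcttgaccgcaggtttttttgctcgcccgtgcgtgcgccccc
Ctsd: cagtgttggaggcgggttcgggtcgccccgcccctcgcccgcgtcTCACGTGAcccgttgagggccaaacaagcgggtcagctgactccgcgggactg
The Gla stretch holds 2 matches and the others 1 each. The log2 changes of the cation channel Mcoln1, the ER-phagy receptor Retreg2 and the protease Ctsd were -0.99, -0.79 and -0.67 as deposited. A match is a description of the letters and not a bound site.

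Genes that answer to FoxO factors and growth factor withdrawal were divided. Of them, 10 of 29 were called higher and 10 lower as deposited, and 2 higher and 17 lower after scaling, with a median of 0.10 as deposited and -0.69 after scaling. Lower were Tob2, an antiproliferative factor (32.7, 34.6 and 31.7 TPM in the labelled KO libraries and 136, 138 and 153 TPM in the labelled wildtype libraries), Txnip, a thioredoxin-binding brake on glucose uptake (-1.79 as deposited and -2.75 after scaling), and Pdk4, which restrains pyruvate oxidation (-1.85 as deposited and -2.76 after scaling). Irs2, the insulin receptor substrate, measured 12.4, 14.2 and 14.2 TPM in the labelled KO libraries and 41, 43 and 42.5 TPM in the labelled wildtype libraries. Sesn3 was higher (1.43 as deposited and 0.56 after scaling).

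Fat metabolism genes were mixed too. Of the fatty acid oxidation list, 18 of 32 were called higher and 6 lower as deposited, and 3 higher and 16 lower after scaling (without the 2 libraries that stood apart, 19 and 9 as deposited and 5 and 22 after scaling). The lipid droplet protein Plin2 (-1.18 as deposited and -2.15 after scaling) and the thioesterase Acot1 (-1.73 as deposited and -2.51 after scaling) were lower. Cpt2, a mitochondrial carnitine transferase, was higher (2.78 as deposited and 2.03 after scaling).

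Inducible HSP70 mRNAs were lower in labelled KO. Hspa1a measured 14.5, 17.4 and 16.6 TPM in the labelled KO libraries and 124, 154 and 103 TPM in the labelled wildtype libraries (log2 change -2.89, SE 0.17, limma adjusted p = 7e-05), and its near-identical copy Hspa1b 46.4, 69.8 and 66.9 TPM in the labelled KO libraries and 353, 417 and 342 TPM in the labelled wildtype libraries. The groups did not overlap for either. The co-chaperone Dnajb1 was lower (-1.25 as deposited and -2.20 after scaling), while the mitochondrial Hspd1 (1.43 as deposited and 0.46 after scaling) and the chaperonin subunit Cct6a (1.66 as deposited and 0.69 after scaling) were higher. Of all heat shock chaperones, 14 of 33 were called higher and 8 lower as deposited, and 3 higher and 20 lower after scaling. The constitutive Hspa8 was not called as deposited (0.18) and was lower after scaling (-0.79).

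Immediate early genes split between transcription factors and growth ligands. Of the AP-1 and EGR factors, 6 of 19 were called higher and 8 lower as deposited, and 2 higher and 12 lower after scaling. Fos measured 9.90, 15.2 and 13.4 TPM in the labelled KO libraries and 86.4, 95.1 and 85.1 TPM in the labelled wildtype libraries (-2.72), and the ERK phosphatase Dusp4 5.95, 4.32 and 3.72 TPM in the labelled KO libraries and 34.6, 36.6 and 39.7 TPM in the labelled wildtype libraries (-2.76). Fosl2 was higher (2.49 as deposited and 1.55 after scaling). Of the growth ligands, 6 of 8 were called higher and 0 lower as deposited, and 6 higher and 0 lower after scaling (without the 2 libraries that stood apart, 7 and 1 as deposited and 7 and 1 after scaling). The EGF receptor ligand Areg measured 18.6, 22.6 and 25.4 TPM in the labelled KO libraries and 0.817, 0.828 and 0 TPM in the labelled wildtype libraries, and the fibroblast growth factor Fgf7 50.5, 89.4 and 90.5 TPM in the labelled KO libraries and 10.7, 5.62 and 10.7 TPM in the labelled wildtype libraries.

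Of p53 targets and CDK inhibitors, 13 of 33 were called higher and 6 lower as deposited, and 5 higher and 17 lower after scaling (without the 2 libraries that stood apart, 16 and 11 as deposited and 6 and 20 after scaling). Mdm2, the p53 ubiquitin ligase (278, 195 and 189 TPM in the labelled KO libraries and 734, 583 and 797 TPM in the labelled wildtype libraries), and the kinase Plk3 (-1.69 as deposited and -2.63 after scaling) were lower. The CDK inhibitors Cdkn2b (2.51 as deposited and 1.56 after scaling) and Cdkn1c (2.46 as deposited and 1.54 after scaling) were higher, and Cdkn2a was not called as deposited (0.14).

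Clock genes followed no single direction. Of the list, 10 of 20 were called higher and 3 lower as deposited, and 2 higher and 8 lower after scaling (without the 2 libraries that stood apart, 11 and 9 as deposited and 4 and 12 after scaling). The repressors Nr1d1 (22, 27.9 and 28.4 TPM in the labelled KO libraries and 94.9, 95 and 88.5 TPM in the labelled wildtype libraries) and Per1 (-1.76 as deposited and -2.67 after scaling) were lower, and Nfil3 (1.71 as deposited and 0.76 after scaling) and Hlf (2.72 as deposited and 2.13 after scaling) higher.

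Extracellular matrix genes were higher in labelled KO. These code for the collagens, glycoproteins and crosslinking enzymes that fibroblasts secrete. Of the collagens, 22 of 25 were called higher and 0 lower as deposited, and 15 higher and 2 lower after scaling (without the 2 libraries that stood apart, 22 and 2 as deposited and 19 and 2 after scaling), with a median of 1.62 as deposited and 0.73 after scaling. Of matrix glycoproteins and proteoglycans, 53 of 64 were called higher and 1 lower as deposited, and 36 higher and 5 lower after scaling (without the 2 libraries that stood apart, 59 and 2 as deposited and 47 and 7 after scaling), with a median of 1.88 as deposited and 0.98 after scaling. Of crosslinking and remodelling genes, 42 of 45 were called higher and 0 lower as deposited, and 28 higher and 0 lower after scaling (without the 2 libraries that stood apart, 44 and 0 as deposited and 39 and 2 after scaling), with a median of 1.85 as deposited and 0.97 after scaling. Glycoprotein and proteoglycan mRNAs took 1.53% to 3.02% of TPM in labelled KO and 0.463% to 0.473% in labelled wildtype.

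Dcn, the collagen-binding proteoglycan decorin (chromosome 10, 97479609 to 97518143, plus strand), measured 122, 158 and 157 TPM in the labelled KO libraries and 1.97, 1.84 and 0.299 TPM in the labelled wildtype libraries (log2 change 6.03, SE 0.34, limma adjusted p = 6.3e-05). Tnc, the glycoprotein tenascin C, measured 293, 632 and 622 TPM in the labelled KO libraries and 8.78, 11.2 and 11.1 TPM in the labelled wildtype libraries (5.43). Both had labelled KO replicate 1 as the lowest of its group, and neither group overlapped the other.

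Col3a1, a fibrillar collagen, measured 318, 678 and 685 TPM in the labelled KO libraries and 23.8, 22.5 and 23.6 TPM in the labelled wildtype libraries (4.45), and Col1a1 1000, 1277 and 1239 TPM in the labelled KO libraries and 184, 251 and 171 TPM in the labelled wildtype libraries (2.54). Loxl2, which crosslinks collagen, measured 123, 132 and 131 TPM in the labelled KO libraries and 5.46, 4.60 and 5.21 TPM in the labelled wildtype libraries (4.41). Unlike Col3a1, Loxl2 was even across the labelled KO libraries.

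Some matrix genes were uneven within labelled KO. Has2, a hyaluronan synthase, measured 4.67, 64.1 and 63.6 TPM in the labelled KO libraries and 0.609, 0.481 and 1.37 TPM in the labelled wildtype libraries. Replicate 1 was far below the other labelled KO replicates and still above all labelled wildtype libraries. Ccn1 was not called (121, 626 and 655 against 281, 253 and 221 TPM), replicate 1 being below and the others above the labelled wildtype range. Aspn was the 1 glycoprotein or proteoglycan called lower as deposited (-1.32 as deposited and -2.19 after scaling).

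Interferon-stimulated genes, the antiviral genes that STAT and IRF factors switch on, were higher in labelled KO almost throughout. Of them, 59 of 60 were called higher and 0 lower as deposited, and 52 higher and 1 lower after scaling, with a median of 2.68 as deposited and 1.90 after scaling, the highest of the lists shown in the plot of list medians. Isg15, a ubiquitin-like modifier, measured 248, 151 and 151 TPM in the labelled KO libraries and 8.52, 12.7 and 10.2 TPM in the labelled wildtype libraries (log2 change 3.98, SE 0.24, limma adjusted p = 7.1e-05). Usp18, which removes ISG15 from proteins, measured 58.4, 39.2 and 37.3 TPM in the labelled KO libraries and 0.671, 0.625 and 0.106 TPM in the labelled wildtype libraries (4.96). Zbp1, a nucleic acid sensor, measured 31.1, 30.4 and 27.5 TPM in the labelled KO libraries and 1.14, 0.775 and 0.604 TPM in the labelled wildtype libraries (4.07). The groups did not overlap for any of these, and labelled KO replicate 1 was the highest library for each. Ifitm1 was the 1 member not called (-0.43).

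The interferon-stimulated response element was searched as GAAA, any 2 bases and GAAA on both strands of the same windows. It was present in 296 of 9608 (3.08%), in 92 of 2421 genes higher under both scalings (3.8%) and in 23 of 691 lower under both (3.33%). Of 44 interferon-stimulated genes with a window 19 held it (43.2%), with a median log2 change of 3.14 as deposited, against 2.28 for those without it. Shown are such stretches for the 4 members with a match and the largest rises, again chosen by their values. They lie at chr3:142559960-142560043 (plus strand), chr4:156200830-156200929 (minus), chr11:58199477-58199555 (plus) and chr5:120907526-120907584 (minus), from RefSeq on GRCm38.p6 with matches in capitals.
Gbp3: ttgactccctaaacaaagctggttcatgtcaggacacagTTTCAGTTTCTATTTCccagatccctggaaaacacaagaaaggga
Isg15: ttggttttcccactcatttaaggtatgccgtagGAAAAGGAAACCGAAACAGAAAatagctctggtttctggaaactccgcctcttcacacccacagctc
Igtp: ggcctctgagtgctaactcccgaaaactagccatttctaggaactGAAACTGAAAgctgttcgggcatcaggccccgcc
Oas1a: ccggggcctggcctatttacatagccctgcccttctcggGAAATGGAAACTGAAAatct
Where matches overlap, the capitals run through them. The Isg15 stretch holds 3 matches, Oas1a 2, Igtp 1 and Gbp3 2, the last on the opposite strand. Gbp3, a guanylate-binding GTPase, measured 41.1, 24.2 and 22.3 TPM in the labelled KO libraries and 0.117, 0.462 and 1.34 TPM in the labelled wildtype libraries (4.22). The immunity GTPase Igtp and the RNA sensor Oas1a had log2 changes of 3.81 and 3.77.

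MHC class I and immunoproteasome genes process and present peptides. Their calls are read against 67.3% higher and 7.23% lower over all genes as deposited, and 25.9% and 24.8% after scaling. Of them, 13 of 18 were called higher and 0 lower as deposited, and 6 higher and 0 lower after scaling (without the 2 libraries that stood apart, 16 and 1 as deposited and 13 and 3 after scaling). H2-K1 measured 102, 49.6 and 49.2 TPM in the labelled KO libraries and 15.3, 11.1 and 17.8 TPM in the labelled wildtype libraries (2.04), and the immunoproteasome subunit Psmb8 16.2, 11.5 and 10.2 TPM in the labelled KO libraries and 0.608, 1.26 and 1.67 TPM in the labelled wildtype libraries (2.65). Class I genes are similar in sequence, so the division of reads between them is uncertain.

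Of chemokines, cytokines, their receptors and NF-kB genes, 33 of 41 were called higher and 1 lower as deposited, and 23 higher and 6 lower after scaling (without the 2 libraries that stood apart, 36 and 2 as deposited and 30 and 8 after scaling), with a median of 2.05 as deposited and 1.29 after scaling. Il13ra1, an interleukin 13 receptor chain, measured 62.2, 77.5 and 79 TPM in the labelled KO libraries and 3.72, 3.16 and 1.62 TPM in the labelled wildtype libraries (4.30). The oncostatin M receptor Osmr measured 134, 117 and 109 TPM in the labelled KO libraries and 5.84, 6.39 and 3.92 TPM in the labelled wildtype libraries (4.26). The NF-kB inhibitor Nfkbia was lower (55.1, 88.3 and 97 TPM in the labelled KO libraries and 189.9, 167 and 201 TPM in the labelled wildtype libraries), and the chemokine Cxcl1 was not called as deposited (78.2, 154 and 156 against 152, 148 and 207 TPM).

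**Figure D2:**
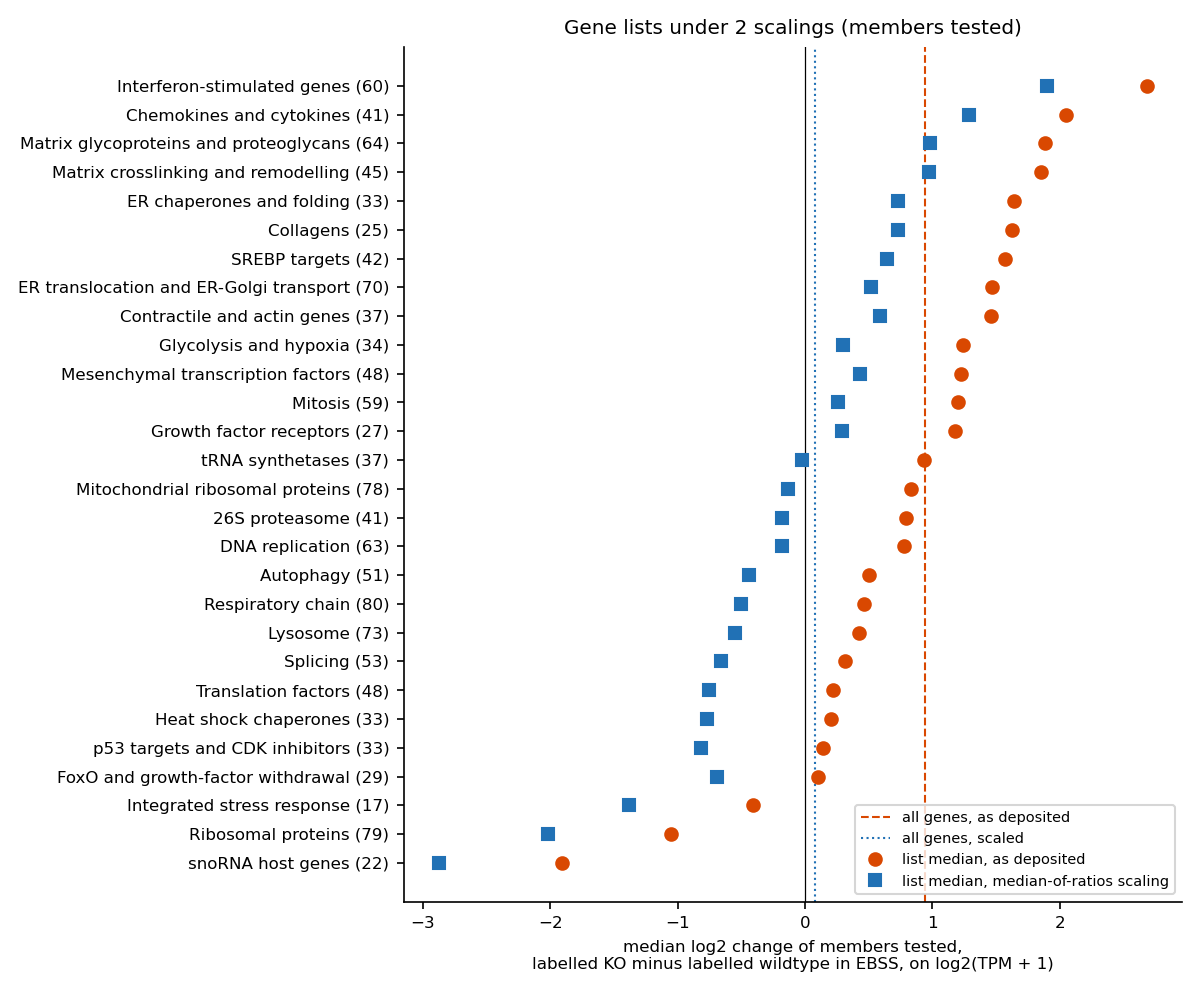
Median log2 change of the members tested in 28 gene lists, labelled KO minus labelled wildtype in EBSS, as deposited (circles) and after median-of-ratios scaling (squares), with the medians of all genes as dashed (0.94) and dotted (0.08) lines. Interferon-stimulated genes are at the top (2.68 and 1.90), and ribosomal proteins (-1.05 and -2.02) and snoRNA host genes (-1.91 and -2.87) at the bottom.

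Most transcription factors of mesenchymal cells were called higher as deposited, as were 67.3% of all genes. After scaling, 25.9% of all genes were called higher and 24.8% lower. The list median was 1.22 as deposited and 0.43 after scaling, against 0.94 and 0.08 over all genes. Of them, 39 of 48 were called higher and 1 lower as deposited, and 14 higher and 4 lower after scaling (without the 2 libraries that stood apart, 43 and 1 as deposited and 31 and 8 after scaling). Osr1 (2.86 as deposited and 1.97 after scaling), Tead1 (2.67 as deposited and 1.79 after scaling), Tbx5 (2.62 as deposited and 1.80 after scaling) and Zeb1 (2.51 as deposited and 1.60 after scaling) were higher under both, and Klf4 lower (-1.17 as deposited and -2.11 after scaling). Hox genes did not move together. Of them, 6 of 17 were called higher and 3 lower as deposited, and 2 higher and 5 lower after scaling (without the 2 libraries that stood apart, 13 and 4 as deposited and 4 and 8 after scaling), with Hoxa13 (2.36 as deposited and 1.65 after scaling) and Hoxd12 (2.06 as deposited and 1.24 after scaling) higher and Hoxa5 (-1.66 as deposited and -2.52 after scaling) lower.

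Of growth factor receptors, 21 of 27 were called higher and 0 lower as deposited, and 10 higher and 3 lower after scaling (without the 2 libraries that stood apart, 25 and 0 as deposited and 15 and 8 after scaling). Tgfbr2, the type II receptor for TGF-beta, measured 69.3, 104 and 102 TPM in the labelled KO libraries and 6.57, 7.13 and 10.3 TPM in the labelled wildtype libraries (3.36), while Tgfbr1 was not called as deposited (0.35). In the IGF axis, 7 of 15 were called higher and 2 lower as deposited, and 5 higher and 4 lower after scaling. The binding protein Igfbp3 measured 116, 163 and 164 TPM in the labelled KO libraries and 2.17, 1.19 and 0.380 TPM in the labelled wildtype libraries (log2 change 6.11, SE 0.32, limma adjusted p = 5.7e-05) and the ligand Igf2 11.5, 14.7 and 14.4 TPM in the labelled KO libraries and 0.336, 0.136 and 0.801 TPM in the labelled wildtype libraries (3.37).

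Over all genes 67.3% were called higher as deposited, and 25.9% higher and 24.8% lower after scaling, and imprinted genes are read against these shares. Of them, 14 of 20 were called higher and 2 lower as deposited, and 8 higher and 5 lower after scaling. The largest rise of any named gene was the imprinted long RNA H19 (chromosome 7, 142575529 to 142578143, minus strand), with 229, 317 and 298 TPM in the labelled KO libraries and 0.445, 1.02 and 2.19 TPM in the labelled wildtype libraries (log2 change 7.05, SE 0.30, limma adjusted p = 4.8e-05). H19 was near 1 TPM in labelled KO and near 200 TPM in labelled wildtype in full medium (0.786, 1.13 and 1.11 and 186, 227 and 199.7 TPM), the reverse of the EBSS order. Peg3 (2.65 as deposited and 1.90 after scaling) and Ndn (2.27 as deposited and 1.61 after scaling) were also higher.

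Cell contact genes were called as follows. Of cadherins and connexins, 11 of 14 were called higher and 0 lower as deposited, and 6 higher and 1 lower after scaling (without the 2 libraries that stood apart, 12 and 1 as deposited and 10 and 2 after scaling). The gap junction protein Gja1 measured 253, 330.1 and 332 TPM in the labelled KO libraries and 35.7, 32.2 and 43.8 TPM in the labelled wildtype libraries (3.00), and Gjb2 was listed at 0 in all labelled wildtype libraries and at 4.03, 49.7 and 44.6 TPM in labelled KO. Cdh2, N-cadherin, was higher as deposited and near 0 after scaling (0.86 as deposited and -0.09 after scaling). Of clustered protocadherins, 12 of 15 were called higher and 0 lower as deposited, and 8 higher and 0 lower after scaling. Only 15 of the 58 listed protocadherins and 14 of the 38 listed cadherins and connexins passed the filter. A member could pass through the labelled KO libraries alone, so these counts are not read as support for a rise. Pcdhgc3 was higher under both (1.52 as deposited and 0.56 after scaling), whereas Pcdhgb6 (1.01 as deposited and 0.15 after scaling) and Pcdhga1 (0.93 as deposited and 0.13 after scaling) were called only as deposited. Members of this cluster share their last exons.

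Genes of the secretory pathway were higher in labelled KO. Of ER translocation and ER to Golgi transport, 68 of 70 were called higher and 0 lower as deposited, and 36 higher and 2 lower after scaling (without the 2 libraries that stood apart, 68 and 0 as deposited and 39 and 11 after scaling), with a median of 1.47 as deposited and 0.52 after scaling. The translocon-associated subunit Ssr1 measured 124, 99.2 and 95.8 TPM in the labelled KO libraries and 15.4, 17.1 and 14.8 TPM in the labelled wildtype libraries (2.67), and the COPI subunit Arcn1 225, 155 and 156 TPM in the labelled KO libraries and 26.5, 27.8 and 31.7 TPM in the labelled wildtype libraries (2.58). Sec62 was not called as deposited (0.04) and was lower after scaling (-0.92).

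Sterol and fatty acid synthesis genes, the targets of SREBP factors, were higher too. Of them, 38 of 42 were called higher and 1 lower as deposited, and 24 higher and 3 lower after scaling, with a median of 1.57 as deposited and 0.64 after scaling. Cyp51, a step of cholesterol synthesis, measured 156, 158 and 160.4 TPM in the labelled KO libraries and 16.2, 17.3 and 22 TPM in the labelled wildtype libraries (log2 change 3.04, SE 0.13, limma adjusted p = 4.8e-05). Scd2, a fatty acid desaturase, measured 528, 692 and 695 TPM in the labelled KO libraries and 68.5, 71 and 57.3 TPM in the labelled wildtype libraries (3.26). Mylip, a ubiquitin ligase, was lower (-1.71 as deposited and -2.62 after scaling). Insig1 was not called as deposited (0.13).

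Of contractile and actin genes, 26 of 37 were called higher and 2 lower as deposited, and 15 higher and 5 lower after scaling (without the 2 libraries that stood apart, 31 and 3 as deposited and 23 and 7 after scaling). The shares of all genes called higher were 67.3% as deposited and 25.9% after scaling. Tropomyosin Tpm1 measured 1333, 2714 and 2788 TPM in the labelled KO libraries and 285, 280.2 and 256 TPM in the labelled wildtype libraries (2.98), and smooth muscle actin Acta2 688, 1376 and 1358 TPM in the labelled KO libraries and 235, 306 and 237 TPM in the labelled wildtype libraries (2.07). For both, labelled KO replicate 1 was the lowest of its group. Of glycolysis and hypoxia-linked genes, 27 of 34 were called higher and 2 lower as deposited, and 11 higher and 6 lower after scaling (without the 2 libraries that stood apart, 29 and 3 as deposited and 17 and 9 after scaling). The lactate exporter Slc16a3 (4.06 as deposited and 3.28 after scaling), the oxygen-regulated factor Hif1a (2.82 as deposited and 1.87 after scaling) and the HIF hydroxylase Egln3 (3.44 as deposited and 2.54 after scaling) were higher, while Gapdh was not called as deposited (0.25). Tubulins were mixed. Of them, 9 of 14 were called higher and 2 lower as deposited, and 4 higher and 4 lower after scaling (without the 2 libraries that stood apart, 11 and 3 as deposited and 7 and 5 after scaling), from Tuba8 (5.18 as deposited and 4.45 after scaling) to Tuba4a (-0.93 as deposited and -1.88 after scaling).

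Scaling moved the median of all genes by 0.86, and the medians of the large housekeeping complexes moved with it. Over all genes 67.3% were called higher and 7.23% lower as deposited, and 25.9% and 24.8% after scaling. Of the respiratory chain, 41 of 80 were called higher and 10 lower as deposited, and 2 higher and 51 lower after scaling (without the 2 libraries that stood apart, 52 and 11 as deposited and 5 and 58 after scaling), with a median of 0.46 as deposited and -0.50 after scaling. Cox4i1 was lower under both (-1.15 as deposited and -2.12 after scaling) and Uqcrc1 higher under both (1.54 as deposited and 0.57 after scaling). Of the 26S proteasome, 33 of 41 were called higher and 0 lower as deposited, and 6 higher and 15 lower after scaling (without the 2 libraries that stood apart, 34 and 1 as deposited and 9 and 20 after scaling). Of mitochondrial ribosomal proteins, 61 of 78 were called higher and 2 lower as deposited, and 11 higher and 20 lower after scaling (without the 2 libraries that stood apart, 68 and 4 as deposited and 20 and 37 after scaling). Of DNA replication genes, 45 of 63 were called higher and 6 lower as deposited, and 13 higher and 20 lower after scaling (without the 2 libraries that stood apart, 51 and 6 as deposited and 20 and 31 after scaling), where the licensing factor Cdt1 was lower (-1.19 as deposited and -2.16 after scaling) and the clamp loader subunit Rfc5 higher (2.43 as deposited and 1.49 after scaling).

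Mitosis genes were called higher for nearly all members as deposited. Of them, 54 of 59 were called higher and 0 lower as deposited, and 17 higher and 8 lower after scaling (without the 2 libraries that stood apart, 59 and 0 as deposited and 37 and 11 after scaling). The kinases Plk1 (68.6, 105 and 103 TPM in the labelled KO libraries and 12.4, 16.7 and 5.80 TPM in the labelled wildtype libraries) and Ttk (2.98 as deposited and 2.13 after scaling) were higher under both scalings. Of ribosome biogenesis genes, 41 of 59 were called higher and 5 lower as deposited, and 14 higher and 20 lower after scaling. The pseudouridine synthase Dkc1 was higher (2.74 as deposited and 1.79 after scaling) and the polymerase I factor Taf1d, itself a host of small nucleolar RNAs, lower (-2.13 as deposited and -3.09 after scaling).

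SR proteins, which mark exons for the spliceosome, were lower as a group, with 7 of 12 called lower and 3 higher as deposited and 11 lower and 1 higher after scaling. Of all splicing genes, 23 of 53 were called higher and 13 lower as deposited, and 2 higher and 34 lower after scaling (without the 2 libraries that stood apart, 28 and 15 as deposited and 5 and 39 after scaling). The kinase Clk1, which phosphorylates SR proteins, measured 49.6, 48.4 and 48.6 TPM in the labelled KO libraries and 191, 178 and 159 TPM in the labelled wildtype libraries (-1.82). Srsf2 was lower (-0.92 as deposited and -1.89 after scaling) and Hnrnpa3 higher (1.75 as deposited and 0.78 after scaling). Of nonsense-mediated decay factors and nuclear long RNAs, 5 of 15 were called higher and 1 lower as deposited, and 0 higher and 10 lower after scaling (without the 2 libraries that stood apart, 9 and 4 as deposited and 1 and 12 after scaling), and Upf1, Upf3a and Smg1 turned from higher to lower values with the scaling (0.58, 0.50 and 0.74 as deposited).

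The partners of RBBP5 had a median below that of all genes, and their share of calls is read against 67.3% higher over all genes as deposited. Of SET1/MLL complex genes, 16 of 21 were called higher and 1 lower as deposited, and 3 higher and 8 lower after scaling, with a median of 0.78 as deposited and -0.16 after scaling. The core subunits Ash2l (1.03 as deposited and 0.08 after scaling) and Dpy30 (1.03 as deposited and 0.07 after scaling) were near 0 after scaling. The methyltransferase Setd1a was lower under both (39.5, 39.4 and 37.7 TPM in the labelled KO libraries and 65.4, 63.3 and 72 TPM in the labelled wildtype libraries), Setd1b was called only as deposited (19.9, 14.8 and 13.4 against 6.40, 7.23 and 5.49 TPM) and Kmt2b was not called as deposited (0.07). Of the 5 H3K4 demethylases, 3 were called higher and 1 lower as deposited, and 1 higher and 4 lower after scaling. Kdm5c (0.50 as deposited and -0.44 after scaling) and Kdm1a (0.47 as deposited and -0.48 after scaling) changed direction between the scalings, Kdm1b was higher under both (1.60 as deposited and 0.87 after scaling) and Kdm5a lower (-0.44 as deposited and -1.33 after scaling). Of Polycomb genes, 17 of 29 were called higher and 2 lower as deposited, and 4 higher and 9 lower after scaling (without the 2 libraries that stood apart, 20 and 3 as deposited and 6 and 16 after scaling), with Cbx2 higher (2.41 as deposited and 1.65 after scaling) and Phf1 lower (-1.09 as deposited and -2.03 after scaling).

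Genes of amino acid sensing were divided. Of the mTORC1 sensing and TFEB axis, 23 of 41 were called higher and 5 lower as deposited, and 8 higher and 13 lower after scaling (without the 2 libraries that stood apart, 25 and 10 as deposited and 11 and 18 after scaling). The GATOR2 subunit Mios (2.84 as deposited and 2.08 after scaling) and the small GTPase Rraga (1.84 as deposited and 0.89 after scaling) were higher, and the sestrin Sesn1 (-1.28 as deposited and -2.20 after scaling) and the GTPase Rragc (-1.18 as deposited and -2.15 after scaling) lower.

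Stress genes set labelled KO replicate 1 apart from its replicates, with a median log2 excess of 1.56 for integrated stress response genes, against 0.08 over all genes. The integrated stress response acts through the factor ATF4, and the unfolded protein response through sensors in the ER. Of the integrated stress response list, 6 of 17 were called higher and 4 lower as deposited, and 1 higher and 8 lower after scaling (without the 2 libraries that stood apart, 7 and 10 as deposited and 2 and 10 after scaling), and labelled KO replicate 1 was at least 2-fold above the mean of its replicates for 13 of the 17. Ppp1r15a, which restores translation, measured 420.3, 93 and 72.1 TPM in the labelled KO libraries and 639.9, 638 and 626 TPM in the labelled wildtype libraries (log2 change -2.16, SE 0.61, limma adjusted p = 0.016). All 3 labelled KO values were below the labelled wildtype range, replicate 1 the closest to it. Atf4 was not called as deposited (1420, 533 and 507 against 981, 968 and 941 TPM), with replicate 1 above and replicates 2 and 3 below all labelled wildtype libraries. Stc2 was higher (56.8, 27.2 and 26.4 TPM in the labelled KO libraries and 0.710, 0.619 and 1.89 TPM in the labelled wildtype libraries).

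Of ER chaperones and folding enzymes, 28 of 33 were called higher and 1 lower as deposited, and 13 higher and 2 lower after scaling (without the 2 libraries that stood apart, 30 and 2 as deposited and 20 and 6 after scaling), with 14 of 33 at least 2-fold higher in labelled KO replicate 1 than in the mean of its replicates. Hspa5 (BiP), the main ER chaperone, measured 8019, 1549 and 1388 TPM in the labelled KO libraries and 1664, 1537 and 1961 TPM in the labelled wildtype libraries and was called under neither scaling (0.59). Pdia4 measured 858, 237.8 and 213 TPM in the labelled KO libraries and 35.8, 43 and 38.4 TPM in the labelled wildtype libraries and was called higher (log2 change 3.14, SE 0.51, limma adjusted p = 0.0014). For Hspa5 replicates 2 and 3 were within or below the labelled wildtype range, whereas for Pdia4 all 3 were above it. Of UPR sensors and ERAD genes, 15 of 23 were called higher and 0 lower as deposited, and 8 higher and 5 lower after scaling (without the 2 libraries that stood apart, 17 and 2 as deposited and 9 and 11 after scaling). The shares of all genes called higher were 67.3% as deposited and 25.9% after scaling. Xbp1 was higher (2.94 as deposited and 2.01 after scaling), and Herpud1 was not called (956, 87.1 and 59.1 against 78.9, 88.3 and 74.3 TPM).

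Amino acid genes were also high in that library, with 13 of 19 synthesis genes at least 2-fold above the mean of replicates 2 and 3. Of transporters, 6 of 18 were called higher and 3 lower as deposited, and 4 higher and 4 lower after scaling (without the 2 libraries that stood apart, 10 and 6 as deposited and 5 and 9 after scaling). Slc38a1 was higher (84.3, 43.5 and 41.8 TPM in the labelled KO libraries and 9.17, 7.89 and 6.15 TPM in the labelled wildtype libraries), and Slc3a2, the shared chain of several exchangers, was not called (959, 182 and 167 against 184, 198 and 199.9 TPM). Of synthesis genes, 9 of 19 were called higher and 0 lower as deposited, and 3 higher and 3 lower after scaling (without the 2 libraries that stood apart, 14 and 2 as deposited and 4 and 10 after scaling), with Cth higher (68.2, 13.4 and 11.7 TPM in the labelled KO libraries and 3.18, 3.00 and 0.314 TPM in the labelled wildtype libraries) and Phgdh not called as deposited (0.10, but called lower at -0.25 without labelled KO replicate 1). Of tRNA synthetases, 25 of 37 were called higher and 2 lower as deposited, and 9 higher and 8 lower after scaling (without the 2 libraries that stood apart, 27 and 6 as deposited and 14 and 17 after scaling), with Tars higher (2.06 as deposited and 1.10 after scaling). With all 6 libraries, the shares of synthetases called higher were near those of all genes, 67.3% as deposited and 25.9% after scaling.

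**Figure D3:**
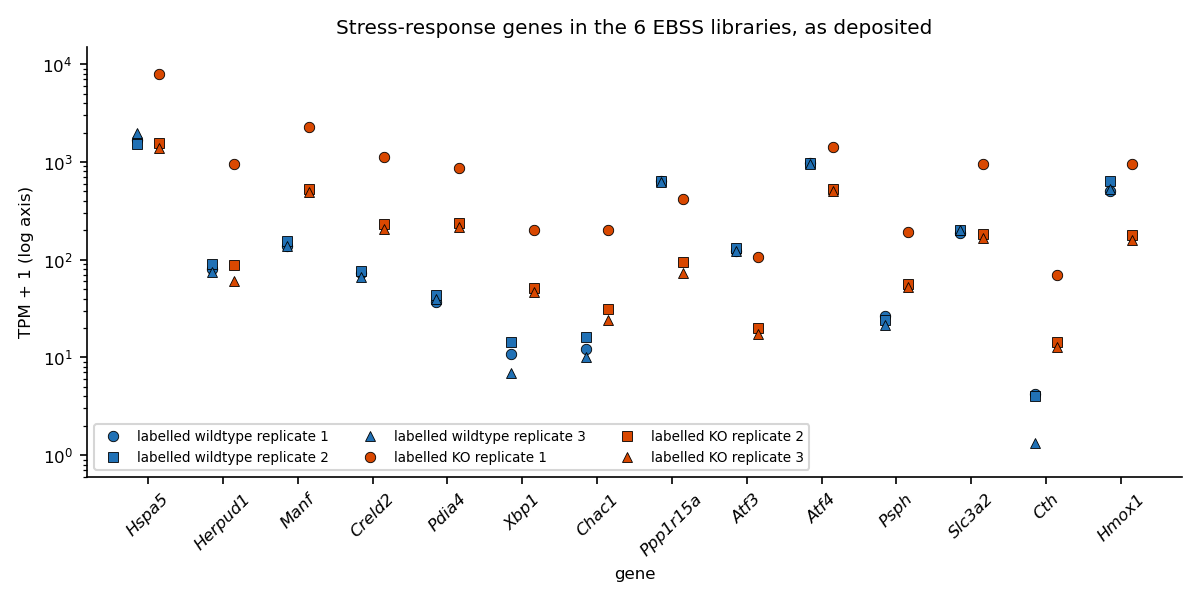
TPM + 1 on a log axis for 14 stress-response genes in the 6 EBSS libraries, with 1 symbol for each replicate number and 1 colour for each label. Labelled KO replicate 1 (orange circles) is above labelled KO replicates 2 and 3 for all 14, from Hspa5 to Hmox1.

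Antioxidant and iron genes were mixed. Of NRF2 targets, 18 of 35 were called higher and 3 lower as deposited, and 6 higher and 9 lower after scaling (without the 2 libraries that stood apart, 23 and 9 as deposited and 8 and 20 after scaling), with G6pdx higher (2.65 as deposited and 1.70 after scaling) and Gstm1 lower (-1.09 as deposited and -2.05 after scaling). Of iron genes, 7 of 12 were called higher and 1 lower as deposited, and 3 higher and 2 lower after scaling (without the 2 libraries that stood apart, 9 and 3 as deposited and 3 and 5 after scaling). The ferritin light chain Ftl1 measured 3118, 2456 and 2566 TPM in the labelled KO libraries and 6467, 5898 and 5044 TPM in the labelled wildtype libraries (-1.10), while the importer Slc11a2 (2.07 as deposited and 1.15 after scaling) and the iron regulatory protein Ireb2 (1.97 as deposited and 1.06 after scaling) were higher. Of S100 calcium-binding proteins, 2 of 11 were called higher and 3 lower as deposited, and 1 higher and 7 lower after scaling (without the 2 libraries that stood apart, 1 and 4 as deposited and 1 and 8 after scaling), led by S100a3 (-2.09 as deposited and -2.92 after scaling).

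Retinoid genes held one of the largest differences. Of them, 8 of 17 were called higher and 4 lower as deposited, and 3 higher and 7 lower after scaling (without the 2 libraries that stood apart, 10 and 4 as deposited and 8 and 8 after scaling). The retinoic acid binding protein Crabp1 measured 213, 227 and 239.6 TPM in the labelled KO libraries and 3.42, 2.50 and 3.85 TPM in the labelled wildtype libraries (log2 change 5.75, SE 0.15, limma adjusted p = 2.1e-05), while its paralog Crabp2 was lower (24.6, 21.7 and 27 TPM in the labelled KO libraries and 102, 102 and 95.2 TPM in the labelled wildtype libraries). The retinol carrier Rbp4 measured 35.1, 44.5 and 51.1 TPM in the labelled KO libraries and 0.832, 0.699 and 24.2 TPM in the labelled wildtype libraries, labelled wildtype replicate 3 being far above its replicates, and was called only as deposited.

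Other large rises were the opioid precursor Penk (5.09 as deposited and 4.24 after scaling), the neuron-derived factor Ndnf (4.77 as deposited and 4.13 after scaling), the Wnt receptor Fzd1 (4.77 as deposited and 3.92 after scaling), the pentraxin Ptx3 (4.72 as deposited and 3.80 after scaling) and Kap, which was listed at 0 in all labelled wildtype libraries and at 38.6, 22.6 and 38.3 TPM in labelled KO. Other large falls were the organic anion transporter Slco4a1, with 1.51, 1.58 and 1.53 TPM in the labelled KO libraries and 41.7, 41.8 and 44.5 TPM in the labelled wildtype libraries (log2 change -4.10, SE 0.14, limma adjusted p = 2.4e-05), the plasmin inhibitor Serpinf2, with 0.589, 0.356 and 0.317 TPM in the labelled KO libraries and 26, 23.6 and 21.7 TPM in the labelled wildtype libraries (-4.13), and Slc23a3 (-3.77 as deposited and -4.41 after scaling). For Slco4a1 and Serpinf2 the libraries of each group lay close together.

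Among abundant genes called in opposite directions under the scalings were Cd63 (0.24 as deposited and -0.74 after scaling), Pkm (0.46 as deposited and -0.52 after scaling), Bsg (0.43 as deposited and -0.54 after scaling) and Pabpc1 (0.38 as deposited and -0.59 after scaling). Among abundant genes called under neither were Hspa5, Calr (0.60 as deposited and -0.38 after scaling), Hspa9 (0.20 as deposited and -0.77 after scaling) and Anp32b (0.31 as deposited and -0.66 after scaling).

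The same labels gave a different contrast in full medium, and the EBSS difference minus the full-medium difference was tested in all 12 libraries. The 2 contrasts share no library. This interaction was called for 9325 genes (77.2%), 7953 higher (65.9%) and 1372 lower (11.4%), and after scaling for 8086 (67%), 4154 higher and 3932 lower. Of the 8131 genes higher in EBSS as deposited, 3610 (44.4%) were called lower in full medium and 1142 (14%) higher. Of the 873 lower in EBSS, 332 (38%) were called higher in full medium and 179 (20.5%) lower. After scaling, 1588 of 3123 genes higher in EBSS (50.8%) were lower in full medium and 1409 of 2991 lower in EBSS (47.1%) were higher in full medium.

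Interferon-stimulated genes had a full-medium median of -1.64, with 52 of 60 called lower and 0 higher there (36.4% and 18.7% of all genes), and 59 of 60 had a called interaction. Matrix glycoproteins and proteoglycans had a full-medium median of -1.56, with 55 of 64 lower. Ribosomal proteins had a full-medium median of 0.19, with 33 of 79 higher and 16 lower, and 73 had an interaction called lower. Respiratory chain genes were mostly higher in full medium, 59 of 80.

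**Figure D4:**
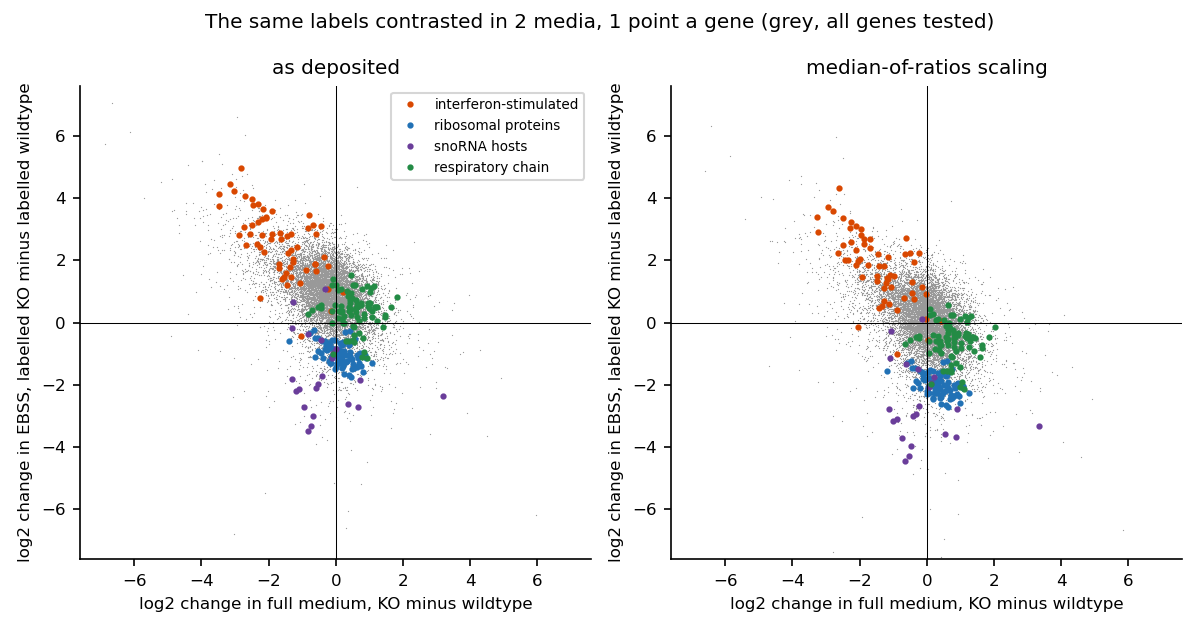
Log2 change between the labels in EBSS (vertical) against the same in full medium (horizontal), 1 point a gene, as deposited (left) and after median-of-ratios scaling (right), with 4 lists in colour. Interferon-stimulated genes are mostly in the upper left, and ribosomal proteins and most snoRNA hosts below 0 on the vertical axis.

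Longer transcripts had larger values. In 5 equal bins of annotated transcript length over 11859 genes (98.2%), the median log2 change was 0.77, 0.84, 0.94, 1.05 and 1.12 from shortest to longest as deposited and -0.10, -0.04, 0.09, 0.22 and 0.33 after scaling. Genes are not independent replicates, so this is a description of the 6 libraries, and its part in the gene lists was not tested.

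**Figure D5:**
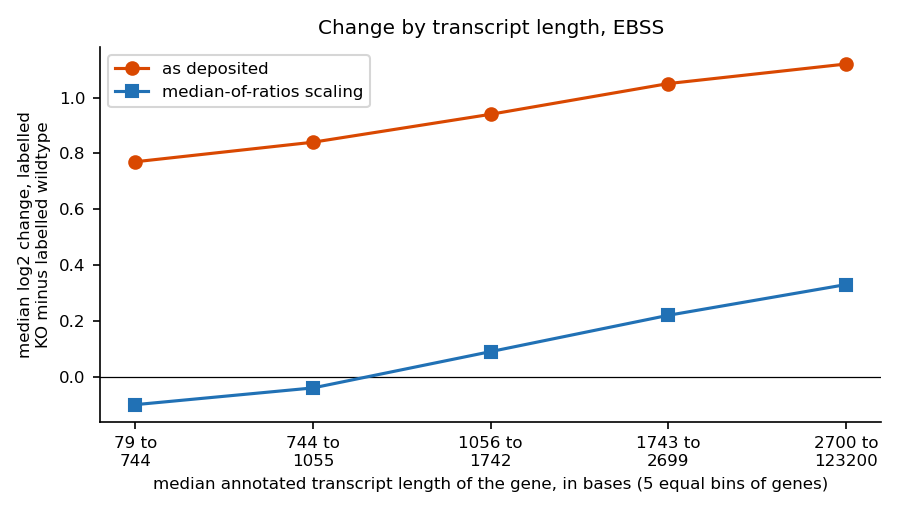
Median log2 change, labelled KO minus labelled wildtype in EBSS, for 5 equal bins of genes by median annotated transcript length in bases, as deposited (circles) and after scaling (squares). Both series go up from the shortest to the longest bin, from 0.77 to 1.12 and from -0.10 to 0.33.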

How the data were processed

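The main contrast rests on 6 EBSS libraries of mouse fibroblast RNA, beside 6 from full medium. Per the labels' protocols, column-purified, DNase-treated RNA went into libraries with a TruSeq kit whose catalogue number is that of a poly(A) kit. The authors deposited 1 table of TPM with a row for each gene symbol. Per the submitters' processing notes, Salmon and mm10 were used, with version and annotation not given in the sources used here. TPM keep no count, so depth is unknown and no counting interval is given. Symbols above 0 numbered 16689 to 17319 in the labelled KO EBSS libraries. In labelled wildtype EBSS they numbered 13527 to 15018, lowest in replicate 3.

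Groups follow the sample titles. Genes with TPM of at least 1 in at least 3 of the 6 libraries were fitted with limma 3.58.1 (R 4.3.3) on log2(TPM + 1), pseudocount 1, with a variance trend, two-sided, with Benjamini-Hochberg adjustment over all 12073 genes and 0.05 as the threshold. The fit was repeated after median-of-ratios scaling, and an interaction was fitted on all 12 libraries. On simulated data for this contrast (12073 genes, 200 changed), 51% of changes of log2 1 and 78% of log2 2 were recovered, and 7.19% of calls were false. The simulation drew genes independently, with rises and falls in equal number and no shift between the groups. The deposited values differ in these respects, so the rates need not hold for them.

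The members and gene lists were chosen with earlier results of these data known, so lists are described by counts and medians only. Named genes are Rbbp5, the 12 largest rises and 12 largest falls called under both scalings without overlap (mean TPM 5 or more where higher, predicted genes, pseudogenes and ribosomal protein genes left out), up to 6 called members a list with up to 2 of the other direction and 2 not called, and 4 abundant genes called in opposite directions and 4 called under neither. Not every gene that meets this rule is reported here. Same-numbered libraries of the 2 groups did not deviate together (correlations of 0.00127, 0.0165 and -0.0149). Coordinates are from GENCODE on GRCm38, promoter windows from RefSeq on GRCm38.p6. Alternatives were other pseudocounts, filters, scalings, variance models, a replicate block and leaving out libraries. Leaving out labelled KO replicate 1 and labelled wildtype replicate 3 together was an alternative added once the data had been seen.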

Additional observations from a re-analysis of the deposited data

Results flagged for a closer look

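The difference between the labels was not the same in EBSS and in full medium for 9325 of 12073 genes by the interaction test (limma, adjusted over all genes), and these named genes were among them. The value for each is the EBSS log2 difference minus the full-medium log2 difference, as deposited. Rbbp5 had 2.52.

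Among the largest rises in EBSS the value was 13.73 for H19, 12.23 for Igfbp3, 8.73 for Dcn, 12.62 for Crabp1, 8.91 for Tnc and 9.14 for Tuba8. It was 8.48 for Penk, 9.45 for Kap, 7.78 for Usp18, 7.42 for Ndnf, 7.85 for Fzd1 and 7.49 for Ptx3. Each of these 12 had a negative difference in full medium. Kap is listed at 0 in all labelled wildtype EBSS libraries, so its value depends on the pseudocount.

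Among the largest falls it was -3.76 for Snord14d, -6.90 for Rpph1, -6.41 for Rmrp, -3.36 for Snord14c, -5.94 for Rn4.5s and -5.11 for Snora78. It was -5.42 for Rnu3a, -4.15 for Serpinf2, -4.55 for Slco4a1, -3.33 for Snora64 and -3.51 for Slc23a3. Groups of 3 libraries are too small for a test of single outlying samples.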

How the results depend on the processing

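The number of genes called as deposited (9004) became 5620 with quantile normalization and 2423 with a 2-fold minimum, and was 8013 to 9681 when 1 library was left out. Genes called higher (8131) became 3123 with median-of-ratios scaling, 2846 with quantile normalization and 2264 with a 2-fold minimum, and were 7319 to 8648 with 1 library left out. Genes called lower (873) became 2991 with median-of-ratios scaling, 2774 with quantile normalization, 1499 with abundant RNA classes left out, 1409 with library weights, 159 with a 2-fold minimum and 1438 without both libraries that stood apart, and were 694 to 1033 with 1 library left out. After median-of-ratios scaling the 6114 calls became 9319 with library weights, 777 with a 2-fold minimum and 9268 without both libraries that stood apart. They were 4033 to 7711 with 1 library left out, the lowest without labelled KO replicate 2. The interaction count (9325) was 8912 to 9978 with 1 library left out. With a replicate block the counts were 8706 as deposited, 5317 after scaling and 9247 for the interaction. The libraries share only a number, so this block pairs nothing.

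Of 478 genes that the naming rule gave, beside those not reported, 50 had the opposite sign in at least 1 alternative with a call on either side. Changes of sign of genes called on neither side, such as Calr, are not counted. With median-of-ratios scaling the log2 change was -0.74 for Cd63, -0.52 for Pkm, -0.54 for Bsg, -0.59 for Pabpc1, -0.87 for Phgdh, -0.79 for Tex264, -0.09 for Cdh2, -0.90 for Myl6, -0.68 for Cfl1, -0.88 for Pcna, -0.92 for Sec62, -0.91 for Acadl, -0.94 for Pmaip1, -0.72 for Gapdh, -0.54 for Tgfbr1, -0.44 for Kdm5c, -0.48 for Kdm1a, -0.87 for Kdm5b, -0.79 for Hspa8, -0.72 for Psap, -0.63 for Mrpl13, -0.59 for Cdc20, -0.80 for Ncapd2, -0.13 for Smg1, -0.38 for Upf1, -0.46 for Upf3a, -0.04 for H2bc4, -0.84 for Cox6c, -0.76 for Rarg, -0.85 for Rara, -0.63 for Rps27l, -0.85 for Kmt2b, -0.62 for Kdm6a, -0.83 for Insig1, -0.54 for Tm7sf2, -0.80 for Snrpb, -0.79 for Snrpf, -0.93 for Tubb5, -0.84 for Cdkn2a and -0.28 for Snhg18. With quantile normalization it was -0.41 for Tex264, -0.05 for Pcdhgb6, -0.19 for Pcdhga1, -0.58 for Sec62, -0.70 for Sec24a, -0.63 for Acadl, -0.70 for Pmaip1, -0.70 for Tgfbr1, -0.73 for Notch1, -0.39 for Kdm5c, -0.34 for Kdm1a, -1.01 for Kdm5b, -0.32 for Smg1, -0.16 for Upf1, -0.09 for Upf3a, -0.41 for Rarg, -0.81 for Rara, -0.11 for Rps27l, 0.44 for Rpl4, -0.91 for Kmt2b, -0.75 for Kdm6a, -0.74 for Tm7sf2, 0.41 for Eef1a1, 0.64 for Tpt1 and -0.24 for Snhg18. With abundant RNA classes left out it was -0.23 for Cd63, -0.01 for Pkm, -0.03 for Bsg, -0.09 for Pabpc1, -0.38 for Pcna, -0.41 for Acadl, -0.45 for Pmaip1, -0.26 for Rarg, -0.29 for Snrpb and -0.29 for Snrpf. Library weights gave -0.70 for Tubb3. Without labelled KO replicate 1 it was -0.25 for Phgdh and -0.43 for Slc7a5, without labelled wildtype replicate 3 it was -0.43 for H2-T23, and without both it was -0.31 for Phgdh, -0.39 for Slc7a5, -0.41 for H2-T23 and -0.76 for Tubb3. With 1 library left out the range was -0.25 to 0.29 for Phgdh, -0.43 to 0.79 for Slc7a5 and -0.43 to 0.57 for H2-T23. Median-of-ratios scaling moved the median of all genes by 0.86. The depth of these libraries is unknown, so low genes are limited to an unknown extent.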
